A study of Rattus norvegicus with 4 samples.

Results

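Cxcl1, Cxcl2, Cxcl3 and Cxcr2, the genes of 3 neutrophil-attracting chemokines and of their receptor, were followed through the cells of rat fascia. They were taken by symbol, and each of the 4 stood on 1 of the 30560 gene rows that the libraries share. RNA of single cells was counted in abdominal midline fascia, whose labels read subcutaneous fascia, from rats in which Salmonella had been used to cause dysentery. All 4 libraries came from dysenteric rats: 2 from rats that also received acupuncture and 2 from rats that did not. Healthy rats were not analysed here, and strain, sex, age and the time between needling and sampling are not given in the sources used here. Whether each library stands for an animal of its own is not said, and a p-value here can speak only of how far these 4 libraries vary, which may be technical. Groups follow the library titles, and the design text names the libraries the same way. The treatment field names the other group in all 4 libraries, and if that field were right every sign below would turn.

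CXC chemokines are small secreted proteins that guide leukocytes along a gradient. Those with a glutamate-leucine-arginine (ELR) sequence before the first cysteines, which include the products of Cxcl1, Cxcl2 and Cxcl3, bind Cxcr2, a G protein-coupled receptor of neutrophils, and draw these cells out of the blood. The ligand genes are induced through NF-kB by interleukin 1, tumour necrosis factor, interleukin 17 and microbial products, in tissue macrophages and in stromal cells such as fibroblasts. Their transcripts are short-lived, because decay factors such as Zfp36 bind AU-rich elements in them.

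The stretch before the transcription start is shown for the genes that had a RefSeq promoter entry, since all 3 ligand genes passed in macrophage-like cells and the receptor gene passed in no class. Entries were found for 3 of the 4 genes, and Cxcl3 is named only. Each sequence is the 250 bases before the start in the GRCr8 assembly, read 5′ to 3′ on the gene's strand. Capitals mark matches to the NF-kB consensus of 10 letters and to the TATA-like letters ATAAAA. Cxcl1 lies on the minus strand, chr14:17479322-17479571. Cxcl2 lies on the minus strand, chr14:17467256-17467505. Cxcr2 lies on the plus strand, chr9:83178395-83178644.
Cxcl1: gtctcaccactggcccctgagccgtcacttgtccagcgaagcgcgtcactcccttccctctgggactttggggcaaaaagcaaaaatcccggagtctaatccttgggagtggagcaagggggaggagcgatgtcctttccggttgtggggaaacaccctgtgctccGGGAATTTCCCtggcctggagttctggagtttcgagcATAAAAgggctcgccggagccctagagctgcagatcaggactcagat
Cxcl2: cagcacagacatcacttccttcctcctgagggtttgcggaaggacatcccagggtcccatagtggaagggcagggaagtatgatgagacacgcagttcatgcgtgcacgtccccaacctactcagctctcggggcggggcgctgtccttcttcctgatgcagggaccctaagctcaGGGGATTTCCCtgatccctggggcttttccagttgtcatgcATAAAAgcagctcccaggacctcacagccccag
Cxcr2: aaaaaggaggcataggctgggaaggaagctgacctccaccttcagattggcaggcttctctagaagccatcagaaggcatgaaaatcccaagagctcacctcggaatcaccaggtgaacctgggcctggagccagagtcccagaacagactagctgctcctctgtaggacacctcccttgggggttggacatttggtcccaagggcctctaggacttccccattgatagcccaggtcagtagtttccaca
Both ligand promoters held NF-kB consensus matches on both strands that overlap each other, between positions -84 and -74 in Cxcl1 and between -74 and -64 in Cxcl2, counted from the start. ATAAAA lay at -47 to -42 in Cxcl1 and at -33 to -28 in Cxcl2. The AP-1 letters TGANTCA had no match in the 3 windows, and the Cxcr2 window held none of the 3 motifs. Among 33469 promoters of the same assembly and length, 3.54% held the NF-kB consensus, 18.6% ATAAAA and 6.34% TGANTCA on either strand. A match describes letters and does not show binding.

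The acupuncture libraries held 70499776 and 93897006 UMIs (unique molecular identifiers, each standing for 1 captured transcript) and the dysentery libraries 53066666 and 79461544. After limits on genes, UMIs and mitochondrial content, 32397 of 38282 deposited cells were kept, with 6629.5 to 9188 UMIs in the median cell of a library. The mitochondrial limit removed more cells from dysentery replicate 1 (16.01%) than from the other libraries (5.11% to 7.17%). Any pair of libraries shared at most 32 cell barcodes. Cells were put in a class where they held at least 3 of 8 markers of that class and at least 2 more than of any other class. None of the markers is 1 of the 4 genes. In 7 classes every library had at least 30 cells, namely fibroblast-like, macrophage-like, monocyte-like, neutrophil-like, T cell-like, NK or innate lymphoid cell-like and endothelial-like. The 8 fibroblast markers summed to 55115 to 88510 CPM in the fibroblast-like class. That follows from the rule that formed the class and is no check of it. CPM is the usual scaling of a gene's UMIs to all UMIs of that class in that library. The telocytes named in the study's title share the markers Cd34 and Pdgfra with fascia fibroblasts and are part of that class here.

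Of the 7 classes tested, Cxcl1 was highest in macrophage-like and fibroblast-like cells with acupuncture, and it rose in both against dysentery alone. In fibroblast-like cells its level was 1212 and 1977 CPM in acupuncture replicates 1 and 2. It was 32.8 and 82.9 CPM in dysentery replicates 1 and 2, so the groups did not overlap. The means were 1594 ± 541 and 57.9 ± 35.4 CPM (SD, n = 2). Cxcl1 thus rose by 4.80 ± 0.60 on the log2 scale (SE), which is 27.8-fold, in edgeR's quasi-likelihood test with Benjamini-Hochberg adjustment (adjusted p = 0.0422). The rise passed with both acupuncture libraries and not with 1 of them: the adjusted p was 0.0976 without acupuncture replicate 1 and 0.152 without acupuncture replicate 2, at log2 values of 5.15 and 4.31.

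In macrophage-like cells Cxcl1 stood at 1283 and 3424 CPM with acupuncture and at 210 and 124 CPM without. The highest dysentery library lay below the lowest acupuncture library here too, although the acupuncture libraries differed from each other more than in fibroblast-like cells. The means were 2353 ± 1514 and 167 ± 60.9 CPM (SD, n = 2), a rise of 3.94 ± 0.54 on the log2 scale (adjusted p = 0.0286). That call was lost without acupuncture replicate 1 (adjusted p = 0.0513), without acupuncture replicate 2 (0.124) and with cluster-based classes (log2 3.49, adjusted p = 0.0666).

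The other classes tested held less Cxcl1 with acupuncture. With acupuncture, macrophage-like and fibroblast-like levels overlapped at the top of the order and neutrophil-like and monocyte-like levels overlapped below them. Without acupuncture, macrophage-like and neutrophil-like levels overlapped at the top. Monocyte-like and fibroblast-like levels lay below these and overlapped, with fibroblast-like cells at 32.8 and 82.9 CPM. In neutrophil-like cells the values were 601 and 143 CPM with acupuncture against 100 and 136 CPM, a log2 difference of 1.61 that did not pass (adjusted p = 0.420). Acupuncture replicate 2 and dysentery replicate 2 were nearly level there. In monocyte-like cells they were 310 and 229 CPM against 97.4 and 34.6 CPM (log2 1.95, adjusted p = 0.273). Endothelial-like cells, which line vessels, had 113 and 191 CPM with acupuncture and 10.3 and 12.1 CPM without, a rise of 3.64 ± 0.39 on the log2 scale (adjusted p = 0.00241). T cell-like cells had 19.0 and 44.3 CPM against 2.37 and 1.72 CPM, a rise of 3.93 ± 0.61 (adjusted p = 0.0155). The level in NK or innate lymphoid cell-like cells was 18.4 and 49.2 CPM against 3.11 and 3.52 CPM, a rise of 3.28 ± 0.57 (adjusted p = 0.0135). Both classes are taken not to make these ligands. Their Cxcl1 stood at 1.13% to 1.48% and 1.44% to 2.83% of the macrophage-like level of the same library. Macrophage markers in these last 2 classes were also higher with acupuncture. They summed to 115 and 111 CPM against 62.9 and 46.3 CPM in T cell-like cells. In NK or innate lymphoid cell-like cells the sums were 98.7 and 117 CPM against 79.3 and 45.7 CPM. Fibroblast markers in T cell-like cells overlapped between groups, at 313 and 466 CPM with acupuncture and 673 and 362 CPM without. The part of RNA from macrophages or fibroblasts in these Cxcl1 values was not tested. The last 2 calls rest on few molecules, with 2 to 6 Cxcl1 UMIs in each dysentery library. Both were lost with a stricter marker gate (adjusted p = 0.179 and 0.0659), that of T cell-like cells also with cluster-based classes (log2 0.65, adjusted p = 0.837), and that of NK or innate lymphoid cell-like cells without acupuncture replicate 2 (adjusted p = 0.239), dysentery replicate 1 (0.337) or dysentery replicate 2 (0.471).

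**Figure D1:**
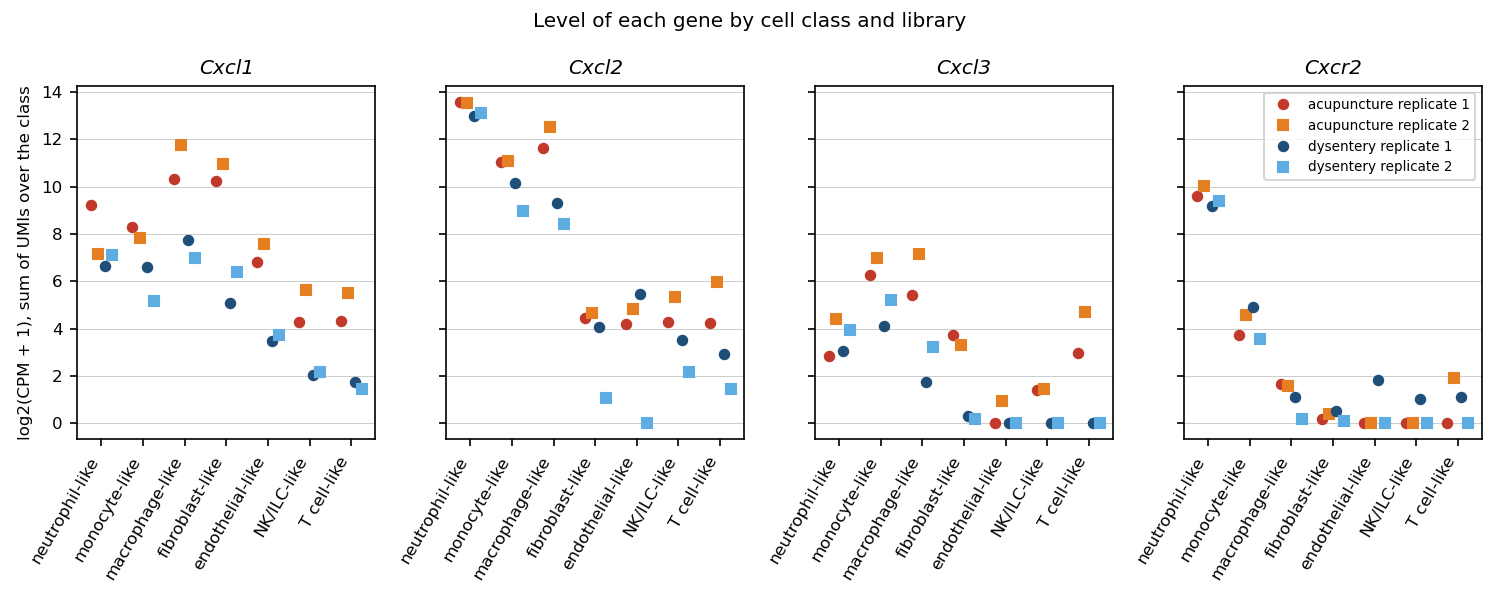
Level of each gene in 7 cell classes, as log2(CPM + 1) of the UMIs summed over the class (vertical axis), with 1 point for each library. Cxcl1 points of the acupuncture libraries lie above both dysentery points in each class, and Cxcr2 is high in neutrophil-like cells, at 584 to 1039 CPM.

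Cxcl2 was highest in neutrophil-like cells in every library, and it passed the test between groups in macrophage-like cells. In macrophage-like cells it stood at 3191 and 5821 CPM with acupuncture and at 640 and 339 CPM without. The groups were far apart, and Cxcl2 rose by 3.33 ± 0.42 on the log2 scale, or 10.1-fold (adjusted p = 0.0242). This call was lost without acupuncture replicate 1 (adjusted p = 0.0740), without acupuncture replicate 2 (0.129) and with cluster-based classes (log2 3.07, adjusted p = 0.0526). In neutrophil-like cells Cxcl2 stood at 12151 and 11738 CPM with acupuncture and at 8003 and 8934 CPM without. These groups did not overlap either, but the difference was small, at 0.33 ± 0.19 on the log2 scale, and did not pass (adjusted p = 0.570). Monocyte-like cells came next, at 2074 and 2156 CPM against 1125 and 506 CPM (log2 1.33, adjusted p = 0.396).

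Fibroblast-like cells held little Cxcl2, at 21.1 and 24.2 CPM with acupuncture and 15.98 and 1.10 CPM without (log2 1.53, adjusted p = 0.476). The dysentery libraries differed from each other by more than the groups did, and without dysentery replicate 1 the log2 difference was 4.34 (adjusted p = 0.000552). In T cell-like cells it was 17.8 and 61.1 CPM against 6.53 and 1.72 CPM, which did not pass (adjusted p = 0.0687). That difference passed when any single library was left out, with adjusted p between 1.01e-11 and 0.0210. The NK or innate lymphoid cell-like level was 18.4 and 39.0 CPM against 10.4 and 3.52 CPM (adjusted p = 0.103). In endothelial-like cells the groups overlapped, at 17.4 and 27.8 CPM against 43.6 and 0 CPM. Neutrophil markers summed to 2989 CPM in the endothelial-like cells of dysentery replicate 1 and to 46.7 to 91.3 CPM in the other libraries. Their part in the Cxcl2 value of that library was not tested.

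Cxcl3 gave at most 6301 UMIs in a library. With acupuncture it was highest in monocyte-like and macrophage-like cells, and without it in monocyte-like cells, followed by neutrophil-like and macrophage-like cells at overlapping levels. In fibroblast-like cells there were 376 and 337 Cxcl3 UMIs with acupuncture and 5 and 6 without. As levels these were 12.1 and 9.04 CPM against 0.236 and 0.147 CPM, a rise of 5.85 ± 0.29 on the log2 scale (adjusted p = 0.00427). The call held when each library was left out in turn, with log2 values from 5.52 to 6.10. In macrophage-like cells Cxcl3 stood at 41.7 and 141 CPM with acupuncture and at 2.32 and 8.40 CPM without. It rose by 4.08 ± 0.77 on the log2 scale, close to the threshold (adjusted p = 0.0496). The macrophage-like call was lost without acupuncture replicate 1 (adjusted p = 0.0794), without acupuncture replicate 2 (0.211), with cluster-based classes (0.0741), with doublets kept (0.0553) and at a mitochondrial limit of 10% (0.0570).

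Monocyte-like cells held 75.7 and 125 CPM of Cxcl3 with acupuncture and 16.1 and 35.5 CPM without (log2 1.95, adjusted p = 0.224). Neutrophil-like cells held 6.29 and 20.4 CPM against 7.39 and 14.6 CPM, too few UMIs for the test, and the groups overlapped. In T cell-like cells there were 11 and 45 Cxcl3 UMIs with acupuncture and 0 in both dysentery libraries (adjusted p = 0.0571). Against the level that 3 UMIs would have given in a dysentery library, the acupuncture level was at least 2.62-fold higher. Neutrophil markers summed to 914 CPM in the T cell-like cells of acupuncture replicate 2 and to 10.3 to 134 CPM in the other libraries. The part of these and of the macrophage markers given above in the Cxcl2 and Cxcl3 values of T cell-like cells was not tested.

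Of the genes tested in a class, 2 of 4 passed as higher with acupuncture in fibroblast-like cells, where 1.09% of all tested genes did so. In macrophage-like cells all 3 ligand genes passed, and Cxcr2 did not, against 2.82% of all tested genes. Calls in either direction took in 1.34% and 4.14% of genes in these classes. Only Cxcl1 passed in T cell-like (of 3 tested, background 1.41%, or 1.58% in either direction), NK or innate lymphoid cell-like (of 2, background 1.17%, or 2.33%) and endothelial-like cells (of 2, background 0.605%, or 0.853%). In monocyte-like cells 0 of 4 passed, where 1 of 7078 genes was called (0.0141%), 521 had an unadjusted p under 0.05 and DESeq2 called 42. In neutrophil-like cells 0 of 3 passed, 0% of genes were called higher, 2 genes were called lower (0.0608%), 357 of 3288 had an unadjusted p under 0.05 and DESeq2 called 6. DESeq2 did call Cxcl1, Cxcl2 and Cxcl3 in monocyte-like cells, with adjusted p of 0.00311, 0.0493 and 0.0169, and so did edgeR with the replicate number as a block (0.000458, 0.00192 and 0.000518).

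**Figure D2:**
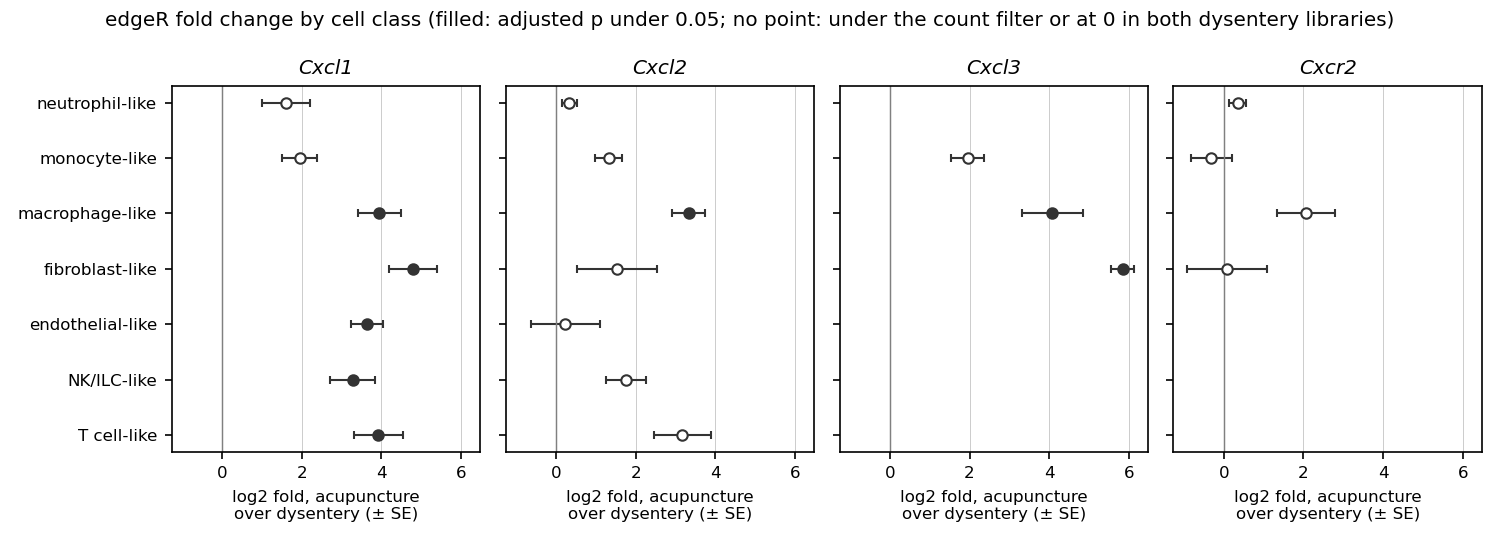
Log2 fold change of each gene, acupuncture over dysentery, with its SE (horizontal axis), by cell class. Filled points passed at an adjusted p under 0.05: Cxcl1 in 5 classes, Cxcl2 in macrophage-like cells and Cxcl3 in fibroblast-like and macrophage-like cells. The Cxcl1 classes include T cell-like and NK or innate lymphoid cell-like cells, both taken not to make these ligands.

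Cxcr2, the receptor, was a gene of neutrophil-like cells and its difference between groups did not pass in any class tested. Its level there was 767 and 1039 CPM with acupuncture and 584 and 671 CPM without. All acupuncture values lay above the dysentery values, with means of 903 ± 192 and 627 ± 61.6 CPM (SD, n = 2), but the log2 difference of 0.35 ± 0.21 did not pass (adjusted p = 0.586). Neutrophil-like cells, chosen by markers such as S100a8, S100a9 and Csf3r, held 74.8% and 55.7% of a library's Cxcr2 UMIs with acupuncture and 66.9% and 72.3% without. Most of the rest lay in cells that met no class rule, at 18.6% to 31.9%. Monocyte-like cells came next in level, at 12.3 and 23.1 CPM against 29.0 and 10.9 CPM, with overlapping groups (log2 -0.31, adjusted p = 0.916). Neutrophil markers summed in that class to 1467 and 954 CPM with acupuncture and to 2291 and 353 CPM without. Their part in the monocyte-like values of Cxcr2 and Cxcl2 was not tested. Macrophage-like cells had 2.16 and 1.98 CPM against 1.16 and 0.131 CPM (log2 2.06, adjusted p = 0.170), which is 1 to 50 UMIs in a library. Fibroblast-like cells had at most 0.424 CPM and 12 UMIs. T cell-like, NK or innate lymphoid cell-like and endothelial-like cells had at most 5 Cxcr2 UMIs in a library.

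The share of neutrophil-like cells overlapped between the groups. Neutrophil-like cells made up 2.93% and 1.09% of kept cells in acupuncture replicates 1 and 2 (95% Clopper-Pearson intervals 2.57% to 3.34% and 0.877% to 1.33%). They made up 3.41% and 0.611% in dysentery replicates 1 and 2 (2.97% to 3.88% and 0.467% to 0.786%). The group means were 2.01% ± 1.31 and 2.01% ± 1.98 (SD, n = 2), with p = 1.0 in a two-sided exact permutation test. With 2 libraries against 2, the smallest p of this test is 0.333, so no share below could pass. The cells had been released by enzymes and cleared of dead cells, and no count of neutrophils in the tissue itself was analysed here.

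By source, most Cxcl1 UMIs of a library came from fibroblast-like and macrophage-like cells with acupuncture. Fibroblast-like cells gave 61.1% and 44.2% with acupuncture and 22.2% and 72.7% without, so the dysentery libraries lay on either side. Macrophage-like cells gave 33.7% and 52.0% against 28.9% and 20.2%. In dysentery replicate 1, cells of no class gave 33.7% of the Cxcl1 UMIs. Cxcl2 came mostly from macrophage-like cells with acupuncture, at 67.6% and 83.7%, and these gave 16.7% and 36.6% without. Neutrophil-like cells gave 12.6% and 2.62% of Cxcl2 with acupuncture and 32.7% and 26.1% without. Cells of no class gave more than that in every library, at 15.4% and 11.3% of Cxcl2 with acupuncture and 37.5% and 28.9% without. Cxcl3 came from macrophage-like cells (33.6% and 56.4% against 9.80% and 24.6%) and from cells of no class (40.5% and 35.2% against 55.9% and 58.1%). Monocyte-like cells gave 4.58% and 1.97% of Cxcl3 against 24.5% and 13.8%, and fibroblast-like cells 18.7% and 5.35% against 4.90% and 2.31%. These shares follow both the level in a class and the number of its cells, and macrophage-like cells made up 24.6% and 28.5% of kept cells with acupuncture and 9.10% and 11.8% without.

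**Figure D3:**
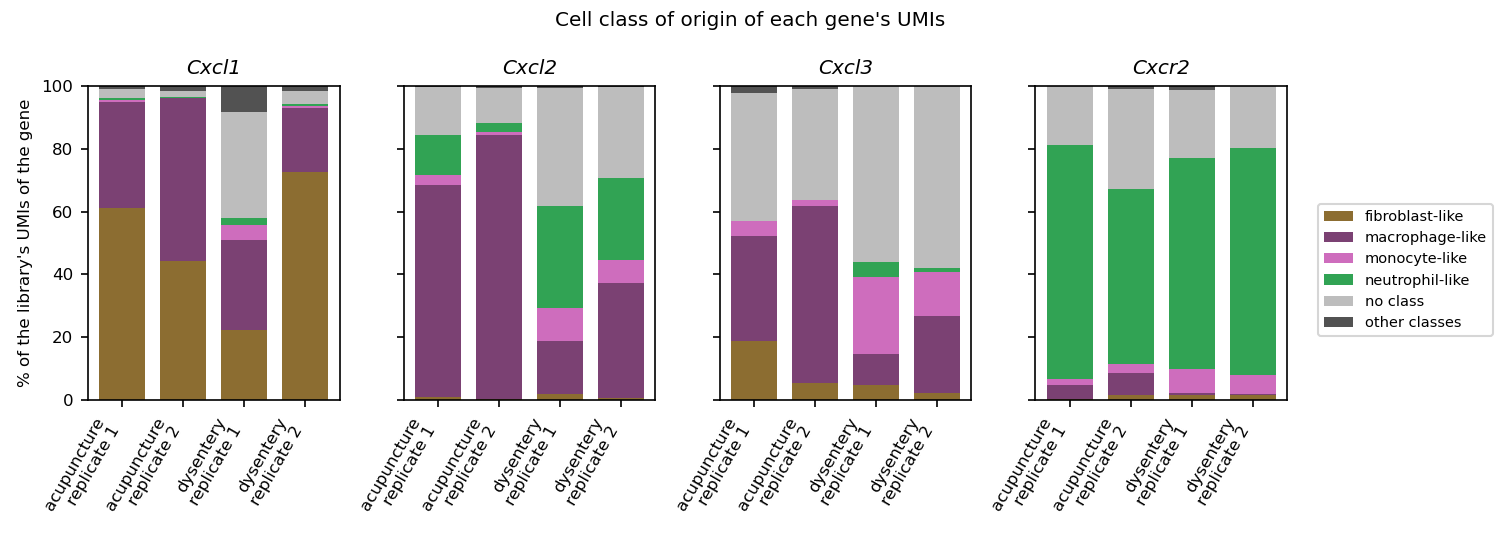
Share of each library's UMIs of a gene (vertical axis, percent) that lay in each cell class, as stacked bars for the 4 libraries. Macrophage-like cells hold 67.6% and 83.7% of the Cxcl2 UMIs with acupuncture, and neutrophil-like cells hold 55.7% to 74.8% of the Cxcr2 UMIs in every library.

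Over all kept cells of a library, without classes, Cxcl1 stood at 991 and 2017 CPM with acupuncture and 66.6 and 68.1 CPM without. The log2 difference of 4.52 ± 0.45 did not pass (adjusted p = 0.0745). In such sums, more cells of a type and more RNA per cell cannot be told apart. The class sums above share this limit for kinds of cell within a class. Fibroblast-like cluster 5, described below, had 1251 and 1538 cells with acupuncture and 16 and 18 without. Macrophage-like cluster 1 had 1050 and 1615 against 10 and 31. Cxcl2 stood at 1232 and 2128 CPM against 351 and 103 CPM (log2 2.96, adjusted p = 0.178). Cxcl3 stood at 32.3 and 76.3 CPM against 2.16 and 3.79 CPM (log2 4.21, adjusted p = 0.116). Cxcr2 overlapped between groups, at 13.1 and 8.85 CPM against 12.5 and 2.78 CPM (log2 0.58, adjusted p = 0.721). For the sums 0 of 15185 genes passed in edgeR (0%), 2443 had an unadjusted p under 0.05, and DESeq2 called 1007, among them all 3 ligand genes (adjusted p = 5.86e-32 for Cxcl1, 0.0146 for Cxcl2 and 3.16e-15 for Cxcl3).

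Whether the change differed between the main sources was tested as an interaction of class and group with library as a block. The macrophage-like minus fibroblast-like difference in log2 change was -1.06 ± 0.65 for Cxcl1 (adjusted p = 0.586), 1.09 ± 0.82 for Cxcl2 (0.666) and -2.01 ± 1.16 for Cxcl3 (0.565). None of the 3 ligand genes passed, and 0 of 13766 genes did (0%), with 1712 at an unadjusted p under 0.05. The Cxcl1 and Cxcl2 values rest on which dysentery library is used. Without dysentery replicate 2 they were -2.12 (adjusted p = 4.25e-05) and 2.37 (1.01e-05), and without dysentery replicate 1 they were 0.000143 (1.0) and -0.54 (0.573).

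The share of cells with a UMI was compared after each cell was thinned to 2000 UMIs, since deeper cells show more genes. Cxcl1 was found in 26.5% and 39.4% of fibroblast-like cells with acupuncture and in 3.42% and 9.11% without. In macrophage-like cells it was found in 34.5% and 65.7% against 5.50% and 6.65%. Groups did not overlap in either class, and each exact permutation p was 0.333, the smallest possible. T cell-like cells, taken not to make these ligands, had Cxcl1 in 4.44% and 8.71% against 1.53% and 0%. Their median depth was 4659 to 5987.5 UMIs, that of fibroblast-like cells 6613 to 9275.5 and that of macrophage-like cells 6625 to 10174. Without thinning the Cxcl1 shares were 35.8% and 53.9% against 8.44% and 17.2% in fibroblast-like cells, and 10.6% and 21.9% against 1.498% and 1.01% in T cell-like cells.

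Cxcl2 was found in 57.3% and 84.1% of thinned macrophage-like cells with acupuncture and in 18.2% and 14.3% without (p = 0.333, exact permutation). Neutrophil-like cells had it in 89.0% and 81.2% against 82.2% and 77.1%, so that here the groups overlapped (p = 0.667, exact permutation). They did not overlap without thinning, at 89.4% and 89.2% against 82.8% and 83.3%, nor at 1000 UMIs, at 86.5% and 80.6% against 77.3% and 78.3% (p = 0.333 for each, exact permutation). Of T cell-like cells it was found in 3.23% and 5.23% against 0.763% and 0.518%. Fibroblast-like cells had Cxcl2 in 2.78% and 4.49% against 2.37% and 0.200%. That is below the T cell-like share in 3 of the 4 libraries and above it in dysentery replicate 1. Without thinning, fibroblast-like cells had Cxcl2 in 8.80% and 18.1% against 7.03% and 0.731%. The unthinned T cell-like shares were 11.0% and 12.3% against 3.37% and 1.01%, so the order turned in acupuncture replicate 2. The part of free RNA in the fibroblast-like shares was not tested. Without thinning, macrophage-like cells had Cxcl2 in 65.7% and 89.6% against 27.0% and 22.8%.

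Cxcl3 was found in 3.54% and 9.86% of thinned macrophage-like cells against 0.183% and 0.456%, and in 0.861% and 0.788% of fibroblast-like cells against 0.0805% and 0.0545%. The T cell-like share was 1.21% and 1.39% with acupuncture, which is above the fibroblast-like share. In the dysentery libraries it was 0%, below the fibroblast-like share. T cell-like cells thus set no single background level for Cxcl3, and the fibroblast-like shares are given as values only. Cxcr2 was found in 75.9% and 82.4% of thinned neutrophil-like cells with acupuncture and in 69.1% and 62.5% without (79.1% ± 4.55 and 65.8% ± 4.65, SD, n = 2). The groups did not overlap at that depth (p = 0.333, exact permutation). Without thinning they did, at 84.1% and 93.5% against 74.9% and 86.7% (p = 0.667, exact permutation). T cell-like cells had Cxcr2 in at most 0.382%. All such intervals and floors cover counting error only.

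**Figure D4:**
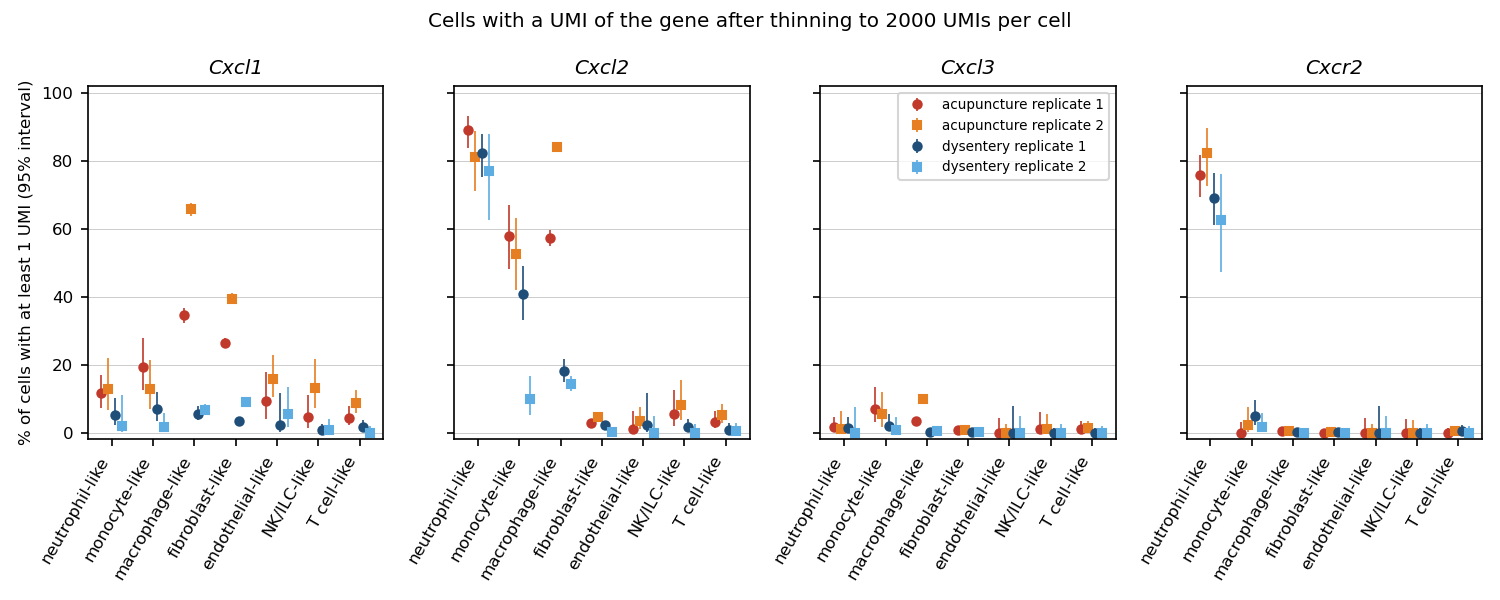
Percent of cells with at least 1 UMI of each gene after thinning to 2000 UMIs per cell, by class and library, with 95% Clopper-Pearson intervals. Cxcl2 is found in 77.1% to 89.0% of neutrophil-like cells in every library, while in macrophage-like cells it is found in 57.3% and 84.1% with acupuncture and in 18.2% and 14.3% without.

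Free RNA in the droplets was checked with genes made by the source classes. T cell-like levels of Sparc, Col6a1, Serpinf1 and Mfap5 were 0.403% to 1.5% of the fibroblast-like levels over the 4 libraries, and the T cell-like level of Cxcl1 was 1.57% to 7.23%. Against macrophage-like levels, T cell-like Lyz2 stood at 0.988% to 2.16%, and Pf4, Stab1 and Fcna at 0% to 0.59%. Cxcl1 stood at 1.13% to 1.48% and Cxcl2 at 0.506% to 1.05% by that measure. So Cxcl1 lay within the range of Lyz2 there, and Cxcl2 overlapped the ranges of Lyz2 and of the other 3 genes. Cxcl3 stood at 0% to 17.9%, beyond that range. The ratio of Cxcl2 to Cxcl1 UMIs was also compared. It would stay the same under 1 pool of free RNA only in classes of a library that make neither ligand. It was 1.24, 1.06, 5.27 and 1.51 in the whole of acupuncture replicates 1 and 2 and dysentery replicates 1 and 2. Fibroblast-like cells had 0.0174, 0.0123, 0.487 and 0.0133, macrophage-like cells 2.49, 1.70, 3.04 and 2.73, and neutrophil-like cells 20.2, 82.1, 79.7 and 65.6. T cell-like cells had 0.935, 1.38, 2.75 and 1.00, on 2 to 79 Cxcl1 UMIs. The ratio differed many times over between fibroblast-like, macrophage-like and neutrophil-like cells of the same library. Classes that make the ligands can differ in it whatever the free RNA, so it does not measure free RNA there. Macrophage markers in the fibroblast-like class summed to 108 and 87.6 CPM with acupuncture and 74.8 and 42.3 CPM without, and none of the 8 was at 0.

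Within a class the ligand genes were uneven. Cells were ranked by their UMIs of a gene, without correction for depth. The 10% of fibroblast-like cells with the most Cxcl1 UMIs held 87.03% and 71.2% of the class's Cxcl1 UMIs with acupuncture and 100% and 87.3% without. A single cell held up to 371 and 436 Cxcl1 UMIs with acupuncture and up to 79 and 76 without. In macrophage-like cells the top 10% held 68.3% and 41.3% of Cxcl1 against 100% and 98.9%, and 45.1% and 30.3% of Cxcl2 against 91.1% and 92.0%. These shares move with the number of cells that hold a UMI at all, and reach 100% where 10% of cells or fewer do. Neutrophil-like cells varied less between libraries, with 32.8% and 33.4% of Cxcl2 in the top 10% against 37.5% and 40.9%.

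Macrophage-like cells with Cxcl1 held Cxcl2 more often than those without it, in every library. At 2000 UMIs, 89.0% and 94.2% of macrophage-like cells with Cxcl1 also had Cxcl2 with acupuncture, and 41.3% and 64.0% of those without Cxcl1 did. Without acupuncture these shares were 54.5% and 58.1% against 16.2% and 10.9%. Fibroblast-like cells showed no such gap with acupuncture. Cxcl2 was in 2.89% and 4.86% of those with Cxcl1 and in 3.10% and 4.59% of the others. In dysentery replicates 1 and 2 the shares were 4.21% and 0.200% against 1.92% and 0.180%. They rest on 4 cells and 1 cell with both genes. Cxcl3 in fibroblast-like cells lay mostly beside Cxcl1, in 2.57% and 1.75% of cells with Cxcl1 and in 0.235% and 0.151% of the others with acupuncture. These are counts over cells of 1 library and carry no test.

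Clusters made without the 4 genes show where in a class the ligand genes lay. Within the fibroblast-like class, 1 large cluster was nearly confined to each group. Cluster 5, led by Ptx3, Ptgs2, Il6 and Has1, had 1251 and 1538 cells with acupuncture and 16 and 18 without. Cluster 10, led by Il34, Olfml2a and Mrgprg, had 34 and 13 cells with acupuncture and 487 and 3405 without. Cluster 5 held 56.8% and 38.6% of all Cxcl1 UMIs of the acupuncture libraries, at 2547 and 2888 CPM. Its few dysentery cells stood at 125 and 552 CPM. Cluster 10 stood at 47.3 and 196 CPM with acupuncture and 33.8 and 107 CPM without, and held 60.2% of the Cxcl1 UMIs of dysentery replicate 2.

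The fibroblast-like clusters numbered 4, 6, 8, 9 and 11 had at least 30 cells in every library and were each fitted alone, a choice made after seeing the data. Cxcl1 rose in cluster 11, led by Igfbp3 and Obp3, from 9.28 and 14.2 CPM to 260 and 1191 CPM (log2 6.0 ± 0.78, adjusted p = 0.0235, with 0.571% of genes called higher). It rose in cluster 8, led by Mgp, Cilp and Igfbp3, from 10.5 and 0 CPM to 262 and 858 CPM (log2 6.64 ± 0.91, adjusted p = 0.0240, background 0.203%). It rose by 1.55 ± 0.33 in cluster 4, led by Mfap5 and Pi16 (adjusted p = 0.0448, background 0.353%). Cxcl2 in cluster 4 was at 17.03 and 23.3 CPM against 8.43 and 0 CPM, on 3 and 0 UMIs in the dysentery libraries, and passed narrowly (fitted log2 3.63 ± 0.78, adjusted p = 0.0494). It passed in no other of these clusters. Cxcl1 did not pass in cluster 6 (log2 0.89, adjusted p = 0.0587, background 1.62%) or in cluster 9, led by Pla2g2a and Spon2 (log2 0.94, adjusted p = 0.199, background 0.803%). These changes ran from 0.89 to 6.64 on the log2 scale, and the difference between clusters was not tested.

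Among macrophage-like clusters, cluster 0, whose leading genes included Spp1, Trem2 and Cxcl2 itself, was present in every library with 201 to 515 cells. Cxcl2 stood there at 7002 and 9731 CPM with acupuncture and at 1005 and 1012 CPM without (log2 3.16 ± 0.21, adjusted p = 0.00149, with 3.04% of genes called higher). Cxcl1 rose there by 3.47 ± 0.34 (adjusted p = 0.00362) and Cxcl3 by 4.22 ± 0.29 (adjusted p = 0.00149). In cluster 2, led by resident macrophage genes such as Cd209f and Ccl24, Cxcl2 stood at 249 and 212 CPM against 67.6 and 134 CPM. It rose by 1.28 ± 0.21 there (adjusted p = 0.000982) and Cxcl1 by 1.25 ± 0.29 (adjusted p = 0.0152, background 2.68%). Cluster 1, with 1050 and 1615 cells with acupuncture and 10 and 31 without, held 45.5% and 51.3% of the Cxcl2 UMIs of the acupuncture libraries. Its Cxcl2 level was 3804 and 5233 CPM against 438 and 1564 CPM.

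**Figure D5:**
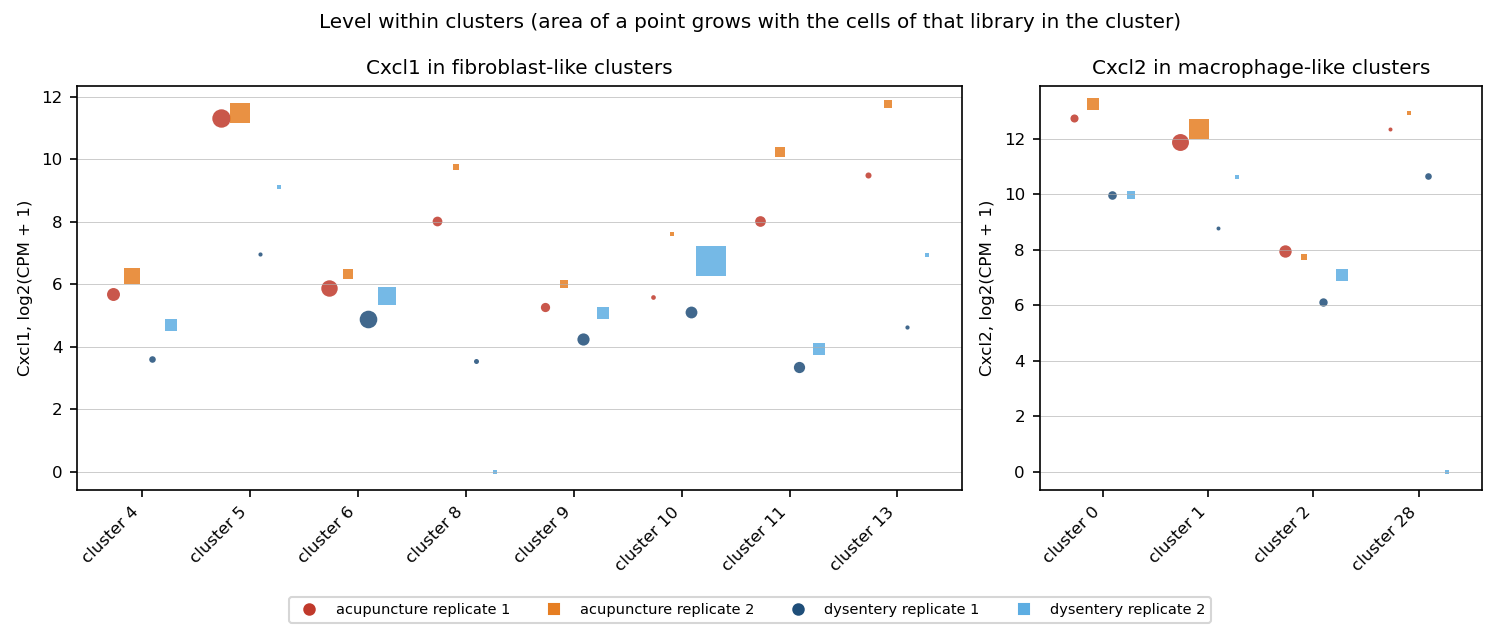
Cxcl1 in the fibroblast-like clusters (left) and Cxcl2 in the macrophage-like clusters (right), as log2(CPM + 1), with 1 point for each library whose area grows with its cells in the cluster. Cluster 5 holds large acupuncture points at 2547 and 2888 CPM of Cxcl1, and cluster 0 sets Cxcl2 at 7002 and 9731 CPM with acupuncture against 1005 and 1012 CPM without.

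A large share of the Cxcl3 lay in cluster 14, whose leading genes included Ccl17, Rel and Nr4a2 and which stayed unnamed. It took in cells of no class and some cells that met a class rule. Cxcl3 is itself among its leading genes and was not used to form it. The cluster held 46.2% and 47.6% of the Cxcl3 UMIs with acupuncture and 27.5% and 68.8% without, at 151 and 248 CPM against 14.7 and 127 CPM. It had 480 and 986 cells against 150 and 132. In cluster 20, unnamed and led by Gata3 and Il1rl1, Cxcl3 stood at 56.2 and 281 CPM with acupuncture and 3.02 and 9.69 CPM without.

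Fibroblast-like cells with a UMI of Has1, a hyaluronan synthase, had Cxcl1 at 2008 and 2928 CPM with acupuncture and 38.7 and 108 CPM without. Those without Has1 had 136 and 532 CPM against 29.97 and 65.9 CPM. In Cd34+ Pdgfra+ fibroblast-like cells, those with Ptgs2, the inducible prostaglandin synthase, had Cxcl1 at 2948 and 3157 CPM against 45.9 and 144 CPM. Those without Ptgs2 had 405 and 518 CPM against 29.9 and 63.1 CPM. Cells with a UMI of either gene were deeper than the others in all 4 libraries, for example 9931 against 5301.5 UMIs in the median for Has1 in acupuncture replicate 1, and the part of depth was not tested. Macrophage-like cells with Trem2, a lipid-sensing receptor, had Cxcl2 at 3162 and 5855 CPM against 525 and 468 CPM. Those without Trem2 had 3384 and 5705 CPM against 815 and 228 CPM.

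Genes with the most similar pattern were ranked over the 28 sums of the 7 classes and 4 libraries, by Pearson's r of log2(CPM + 1) among 13356 genes. These sums share libraries and depth, so r is a description. Cxcl1 was most like Ccl2 (0.85) and Ccl7 (0.81), which attract monocytes, then Grn (0.79), Psme4 (0.78) and Atf3 (0.77). The genes most like Cxcl2 included Exo5 (0.95), Nlrc4 (0.95) and 2 genes with an identifier only. Cxcl3 was most like Atf3 (0.78), 1 gene with an identifier only, Zfand2a (0.76), Cxcl2 (0.76) and Nfkbiz (0.76). Cxcr2 was most like Clec4e (0.98), Clec4d (0.97), Sirpb2 (0.97), Sirpd (0.97) and 1 gene with an identifier only.

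The related chemokines did not all move with the 3 ligands. A list of 6 further chemokines and receptors of the family had 2 genes that could be tested in fibroblast-like cells, and 1 passed as higher. This was Pf4, platelet factor 4, a CXC chemokine that itself lacks the ELR motif, at 12.6 and 15.6 CPM against 5.66 and 4.47 CPM (log2 1.52, adjusted p = 0.0465). Pf4 stood at 2509 and 2468 CPM against 1198 and 1350 CPM in macrophage-like cells, and macrophage markers in the fibroblast-like class were also higher with acupuncture, as given above. Their part in the fibroblast-like Pf4 value was not tested. Pf4 also rose in macrophage-like cells, by 1.08 (adjusted p = 0.0237), and in endothelial-like cells, by 4.33 (adjusted p = 0.0416), where macrophage markers summed to 155 and 103 CPM with acupuncture against 46.1 and 31.1 CPM. Their part in the endothelial-like values of Pf4 and Cxcl1 was not tested. Of 8 other CXC chemokines without the ELR motif, 6 were tested in fibroblast-like cells, with a median log2 change of 0.0014 against -0.0057 over all genes. Cxcl10, an interferon-induced attractant of T cells, rose by 2.37 (adjusted p = 0.0319), and Cxcl13, an attractant of B cells, fell by 2.63 (adjusted p = 0.0145). In macrophage-like cells 5 were tested: Cxcl10 rose by 1.98 (adjusted p = 0.0270) and Cxcl12, a homeostatic chemokine, fell by 1.82 (adjusted p = 0.0358).

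Some genes of the signals that induce the ligands passed in T cell-like and macrophage-like cells. Of 14 inducers and their receptors, 8 were tested in T cell-like cells and 2 passed, both higher. Il17a, which acts on stromal cells to raise such chemokines, stood at 732 and 1490 CPM with acupuncture and 201 and 96.0 CPM without (log2 2.94 ± 0.40, adjusted p = 0.00963). Il17f, a relative of it, rose by 4.27 (adjusted p = 0.00643). In macrophage-like cells 3 of 9 passed, all higher: Il1a (log2 2.80, adjusted p = 0.0475), the bacterial lipoprotein receptor Tlr2 (1.12, adjusted p = 0.0237) and the tumour necrosis factor receptor Tnfrsf1a (0.69, adjusted p = 0.0374). In fibroblast-like cells 0 of 11 passed, with a median log2 change of -0.09. Medians over the list were 0.63 in macrophage-like and 0.25 in T cell-like cells.

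Of the 11 regulators of NF-kB and of mRNA decay, 3 passed as higher and 0 as lower in fibroblast-like cells, and likewise in macrophage-like cells, with list medians of 0.40 and 0.46. The same 3 genes passed in both. Nfkbiz, a co-regulator of NF-kB, stood at 186 and 173 CPM with acupuncture and 14.0 and 9.55 CPM without in fibroblast-like cells (log2 3.96, adjusted p = 0.00427), and rose by 2.44 in macrophage-like cells (adjusted p = 0.0344). Zc3h12a, an RNase, rose by 1.77 and 2.05 (adjusted p = 0.0455 and 0.0286), and Zfp36, the AU-rich element binding decay factor, by 1.66 and 1.42 (adjusted p = 0.0202 and 0.0187). In T cell-like cells 5 of 11 passed as higher. The 4 with the greatest fold were Zc3h12a (1.53), Tnfaip3 (1.43), Nfkbiz (1.42) and Zfp36l1 (1.13). In NK or innate lymphoid cell-like cells Nfkbie alone of 10 passed (0.91, adjusted p = 0.0135). In neutrophil-like cells 0 of 10 passed, and the list median was -0.42.

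Of 14 other genes of neutrophil recruitment, Icam1, the adhesion molecule that neutrophils bind, rose in fibroblast-like cells by 1.87 (adjusted p = 0.0220, 1 of 9 tested) and in macrophage-like cells by 1.69 (adjusted p = 0.0344). Vcam1, another adhesion molecule, rose in macrophage-like cells by 0.98 (adjusted p = 0.0466, so 2 of 8 tested). Itgb2, an integrin chain of leukocytes, fell in NK or innate lymphoid cell-like cells by 1.05 (adjusted p = 0.0177, 1 of 4 tested). In endothelial-like cells, whose adhesion molecules and selectins hold neutrophils at the vessel wall, 0 of 5 passed.

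Early response genes, which enzyme digestion of tissue can also raise, passed as higher with acupuncture in 4 of the 5 classes in which a ligand gene did. Of 12 such genes 9 were tested in each class. In fibroblast-like cells 4 passed as higher and 0 as lower, with a median log2 change of 1.93: Atf3 (4.28), Egr1 (3.09), Jun (2.55) and Junb (1.78). In macrophage-like cells 6 passed as higher with a median of 1.92, led by Ier3 (2.28), Junb (2.01), Jun (1.92) and Fosb (1.67). In T cell-like cells 4 passed (Atf3 3.23, Junb 1.32, Jun 1.02 and Fosb 0.95), and in endothelial-like cells Egr1 alone (0.97). In monocyte-like, neutrophil-like and NK or innate lymphoid cell-like cells 0 passed, with medians of 0.42, -0.34 and -0.18. The part of handling or digestion in the ligand values was not tested, and the labels give no batch or date by library.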

How the data were processed

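Single cells of fascia were captured in droplets and tagged at the 3′ end. Per the submitters' processing notes the authors used Cell Ranger 6.0.1 and STAR, with the builds mRatBN7.2 and GRCh38.p13 named without a role. What the authors deposited are matrices of unnormalized UMI counts, with 53066666 to 93897006 UMIs in a library. Beside each matrix the authors placed lists of its barcodes and genes (other content, not measurements).

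Cells with at least 300 genes, 500 UMIs and at most 20% mitochondrial UMIs were kept. Doublets were the cells with the highest Scrublet scores (scanpy 1.11.5), removed at 0.8% per 1000 cells. A class needed 3 of 8 markers and a lead of 2 (stricter gate: 4 and 3). Cells at exactly that lead numbered 1636 of 16525 in the fibroblast-like and 580 of 6068 in the macrophage-like class. They numbered 291 of 492 monocyte-like, 140 of 594 neutrophil-like and 378 of 1013 T cell-like cells. In the NK or innate lymphoid cell-like class they were 214 of 645, and in the endothelial-like class 59 of 463. The stricter gate left 25 monocyte-like cells in acupuncture replicate 2, so that class was not tested with it. In cluster-based classes a cluster took the class of most of its gated cells. Leiden clusters (igraph 0.11.9, resolution 1, 2000 variable genes, 30 components, 15 neighbours) were made without the 4 genes.

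UMIs were summed per library and class and tested with edgeR 4.0.16 (R 4.3.3, limma 3.58.1; quasi-likelihood, TMM, filterByExpr minimum count 10), with Benjamini-Hochberg adjustment within a class at 0.05. DESeq2 1.42.0 was an alternative. Log2 values are acupuncture minus dysentery. Shares used hypergeometric thinning to 2000 UMIs, leaving out shallower cells, with exact permutation tests (numpy 2.4.6, scipy 1.17.1). On simulated sums of the fibroblast-like class (13417 genes), 100% of 16-fold and 68.0% of 4-fold changes were recovered. These were 100% and 71.7% in the macrophage-like class, and 98.9% and 58.5% in the neutrophil-like class (3288 genes). False calls were 1 of 167 in the fibroblast-like, 5 of 176 in the macrophage-like and 3 of 150 in the neutrophil-like class. Such recovery need not hold for the real libraries, where a 27.8-fold Cxcl1 rise in fibroblast-like cells had an edgeR adjusted p of 0.0422.

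The genes, gene lists and markers were chosen with earlier results of these data known, and the early response list was added after the files were seen. Named genes are the 4 genes, for each the 5 most similar by Pearson's r (1 of these is not reported here), and from the lists at most 4 per class past the threshold by size of fold. TMM moved the median of all genes by over 0.1 (log2) in macrophage-like, endothelial-like and neutrophil-like cells. Same-numbered libraries are not said to be paired.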

Additional observations from a re-analysis of the deposited data

Results flagged for a closer look

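Cxcl10, an interferon-induced chemokine without the ELR motif, moved in opposite directions in different classes, with no overlap of the groups in any of the 3. With acupuncture it was higher by 2.37 on the log2 scale in fibroblast-like cells (41.5 and 59.1 CPM against 11.6 and 8.47 CPM) and by 1.98 in macrophage-like cells (164 and 263 CPM against 66.6 and 51.6 CPM). In endothelial-like cells its log2 change was -1.70 (85.5 and 98.1 CPM against 310 and 247 CPM, edgeR adjusted p = 0.00402). The difference between the classes was not tested. Cxcl10 was noticed among 8 listed chemokines after its values were seen. The median endothelial-like cell was shallower with acupuncture (2854 and 4038.5 UMIs) than without (6840 and 6597), and the part of depth was not tested.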

How the results depend on the processing

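In macrophage-like cells the ligand calls lay close to the threshold. With cluster-based classes the log2 changes were 3.49 for Cxcl1, 3.07 for Cxcl2 and 3.74 for Cxcl3, and Cxcl3 had 3.90 with doublets kept and 4.09 at a mitochondrial limit of 10%, none of which passed. Leaving out 1 library gave 3.06 to 4.49 for Cxcl1, 2.83 to 3.85 for Cxcl2 and 2.98 to 5.45 for Cxcl3 there, and 4.25 to 5.69 for Cxcl1 in fibroblast-like cells. Within fibroblast-like clusters 6 and 9 alone the Cxcl1 change was 0.89 and 0.94 and did not pass. Over all kept cells DESeq2 gave 4.52, 2.95 and 4.22 for Cxcl1, Cxcl2 and Cxcl3, all passing, and without the count filter Cxcl1 (4.53) and Cxcl3 (4.22) passed. Leaving out 1 library there gave 3.86 to 4.98, 2.35 to 4.03 and 3.40 to 4.74, and -0.12 (without dysentery replicate 2) to 1.95 for Cxcr2. The interaction ran from -2.12 to 0.000143 for Cxcl1, -0.54 to 2.37 for Cxcl2 and -2.96 to -0.25 for Cxcl3. Signs that turned in lesser classes were those of Cxcl2 in endothelial-like cells (-0.22 without acupuncture replicate 2, -1.03 without dysentery replicate 2, range up to 7.17), Cxcr2 in fibroblast-like cells (-0.85 without acupuncture replicate 2, -0.79 without dysentery replicate 2, range up to 1.59) and Cxcr2 in monocyte-like cells (0.09 without acupuncture replicate 1, 0.63 without dysentery replicate 1, range from -0.78). The neutrophil-like share differed by 0.000282 points, by -0.483 with cluster-based classes, and by -1.40 to 1.40 with 1 library left out. The cause was not tested.

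The numbers of genes called also moved. Fibroblast-like cells had 180, against 752 with DESeq2, 590 with no filter, 321 with the stricter gate, 330 with cluster-based classes and 21 to 581 with 1 library left out. Macrophage-like cells had 471, against 888, 2064, 58 (cluster-based) and 211 (doublets kept), and 0 to 934. Monocyte-like cells had 1, against 42, 240, 20 (cluster-based) and 6 (doublets kept), and 11 to 154. Neutrophil-like cells had 2, against 6, 83 and 22 (doublets kept), and 0 to 27. T cell-like cells had 128, against 464 with no filter, 8 with the stricter gate and 64 (cluster-based), and 288 to 491. NK or innate lymphoid cell-like cells had 148, against 86, 409, 45 (stricter gate) and 39 (cluster-based), and 1 to 393. Endothelial-like cells had 55, against 316 with no filter, 98 (cluster-based) and 15 (doublets kept), and 25 to 230. All kept cells had 0, against 1007, 20 with upper-quartile scaling, 214 with no filter and 21 at a mitochondrial limit of 10%, and 0 to 185. The interaction had 0, against 284 with the stricter gate and 0 to 670.

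With the replicate number as a block, the pairing gave 60 calls in fibroblast-like, 195 in monocyte-like, 70 in neutrophil-like, 286 in T cell-like, 70 in NK or innate lymphoid cell-like, 395 in endothelial-like and 2 in all kept cells. The labels do not say that a number marks a shared animal or day, and with 2 pairs deviations of same-numbered libraries correlated at -0.03 to 0.22 over genes. Shallow cells limit shares of cells: endothelial-like cells had a median of 2854 UMIs in acupuncture replicate 1. With 1 library left out, the lone library of its group is assumed to vary like the others.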

Other observations

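Some small classes also held the ligand genes and had too few cells for a test. Cells with epithelial keratins, whose leading genes were milk-protein genes such as Csn1s1 and Lalba, numbered 58 and 35 with acupuncture and 68 and 9 without. Their Cxcl1 stood at 294 and 4467 CPM with acupuncture and 246 and 356 CPM without, so acupuncture replicate 2 stood apart. They gave 7.04% of the Cxcl1 UMIs of dysentery replicate 1. Dendritic cell-like cells, which present antigen to T cells, held Cxcl2 at 495 and 645 CPM with acupuncture and 46.2 and 31.8 CPM without, in 23 and 63 cells against 50 and 50. B cell-like cells, taken to lack the ligands, had Cxcl1 at 28.8 and 89.0 CPM against 2.96 and 0 CPM.

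Cluster 28, led by the macrophage elastase gene Mmp12, had 118 cells in dysentery replicate 1 and at most 11 in any other library. It held Cxcl2 at 1633 CPM in dysentery replicate 1, above the macrophage-like class of that library at 640 CPM, and 5.34% of the library's Cxcl2 UMIs.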
